A study of Homo sapiens with 53 samples.

Results

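The promoters of 8 genes known as direct targets of the tumour suppressor p53 were followed through 10 lists of chromatin immunoprecipitation sequencing (ChIP-seq) peaks from HEK293T cells. The genes were CDKN1A, MDM2, GDF15, BBC3, FAS, RRM2B, FDXR and BTG2. A peak counted as lying at a promoter when any part of it was within 5 kb of the gene's start site on the human genome build hg19, and 104 of the 706206 peaks in the 10 lists met this rule. The genes were chosen by name, with the peak positions and fold enrichments of these same lists already known, so the presence and the strength of their peaks are given as a description and not as a test.

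Each list covered 1 immunoprecipitated protein in cells that had received either the compound BPK-25 at 30 µM or its solvent DMSO, in both cases for 72 h. CTCF and MBD3 were precipitated with their own antibodies from parental HEK293T cells, a human embryonic kidney line that carries the SV40 large T antigen, which binds p53. TET1, TET2 and TET3 were precipitated through a Flag tag from derived edited HEK293T lines, 1 line per protein, whose DMSO groups carried the same tag. The study comprised 53 samples, 29 from immunoprecipitation and 24 of input chromatin, and each antibody and treatment had 3 labelled replicates except TET2 in DMSO, which had 2. There is 1 list per protein and treatment, taken as called on pooled replicates, so that no value below has a spread between replicates and no difference between treatments could be tested. CTCF and MBD3 of 1 treatment came from the same cells, for which the labels give 1 set of input samples. No list of p53 itself and no expression values were used, so neither the binding of p53 nor the activity of these genes was measured.

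The protein p53 is stabilised after DNA damage and other stress and binds paired copies of a short palindromic sequence, called half-sites, near its target genes. The products of these targets stop the cell cycle, start apoptosis, supply nucleotides for repair, or, in the case of MDM2, mark p53 itself for destruction. CTCF is a zinc-finger protein that binds insulators and the anchors of chromatin loops. MBD3 is a subunit of NuRD, a complex that remodels nucleosomes and deacetylates histones, and the TET proteins oxidise 5-methylcytosine in DNA, often at promoters rich in CG dinucleotides.

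Promoter sequences were found for 7 of the 8 genes in a RefSeq table of GRCh38.p14, with several annotated starts for MDM2, FAS and FDXR. The 250 bases before 5 of these starts are shown because they differ in the letters that bear on the proteins measured and on p53. They are written 5′ to 3′ on the gene's strand, with their coordinates on GRCh38.p14, which were not converted to hg19. Capitals mark matches to a p53 half-site, to a 20-letter p53 site with at most 2 mismatches, or to letters of the CTCF core, searched in a long form (CC, any 3 bases, AG, any 2 bases, GGC) and a short form (AGGGGGC).
CDKN1A, chr6:36678464-36678713, plus strand: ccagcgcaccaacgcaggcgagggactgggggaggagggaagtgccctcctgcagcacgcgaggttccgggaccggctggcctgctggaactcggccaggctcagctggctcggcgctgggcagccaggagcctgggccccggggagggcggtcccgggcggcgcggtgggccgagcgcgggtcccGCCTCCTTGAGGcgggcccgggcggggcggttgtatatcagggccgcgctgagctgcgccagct
MDM2, start 1, chr12:68807922-68808171, plus strand: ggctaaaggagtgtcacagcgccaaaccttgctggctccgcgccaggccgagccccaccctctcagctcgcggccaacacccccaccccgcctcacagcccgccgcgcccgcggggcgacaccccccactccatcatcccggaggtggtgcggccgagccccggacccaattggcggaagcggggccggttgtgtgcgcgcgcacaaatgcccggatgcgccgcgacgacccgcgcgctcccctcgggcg
MDM2, start 3, chr12:68808767-68809016, plus strand: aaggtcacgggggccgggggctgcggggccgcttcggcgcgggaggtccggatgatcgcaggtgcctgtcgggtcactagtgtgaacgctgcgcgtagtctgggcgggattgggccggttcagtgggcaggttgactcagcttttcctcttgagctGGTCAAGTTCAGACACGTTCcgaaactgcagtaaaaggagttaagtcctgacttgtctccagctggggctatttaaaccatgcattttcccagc
GDF15, chr19:18385908-18386157, plus strand: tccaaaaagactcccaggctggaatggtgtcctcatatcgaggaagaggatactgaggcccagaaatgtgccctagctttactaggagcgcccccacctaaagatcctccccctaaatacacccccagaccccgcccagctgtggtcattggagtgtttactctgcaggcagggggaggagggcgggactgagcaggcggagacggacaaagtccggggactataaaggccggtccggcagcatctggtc
FDXR, start 1, chr17:74872995-74873244, minus strand: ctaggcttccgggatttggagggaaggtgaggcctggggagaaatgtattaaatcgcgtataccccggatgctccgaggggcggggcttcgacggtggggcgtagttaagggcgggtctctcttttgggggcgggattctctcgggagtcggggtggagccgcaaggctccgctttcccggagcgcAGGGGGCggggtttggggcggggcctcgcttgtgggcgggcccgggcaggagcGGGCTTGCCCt

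Both strands were searched, and all shares are of 35116 RefSeq promoters of the same length. In CDKN1A the capitals are a match to the long CTCF form on the minus strand, 64 to 53 bases before the start, and 8.90% of promoters hold these letters. This promoter also had 4 copies of GGGCGG, the GC box, of which 2 share a base, and 42.6% of promoters hold at least 1 copy. At the downstream start of MDM2, known as the p53-responsive promoter of that gene, the capitals are a 20-letter p53 site with 2 mismatches, 94 to 75 bases before the start. Such a site was found in 0.561% of promoters. FAS start 3 held another, GGACAAGCCCTGACAAGCCA, 122 to 103 bases before the start, which contains an exact p53 half-site in its first 10 letters. In FDXR the capitals are AGGGGGC, 64 to 58 bases before the start, and an exact p53 half-site, 11 to 2 bases before it. AGGGGGC is found in 13.3% of promoters and an exact half-site in 5.57%, and here AGGGGGC overlaps 1 of 6 GC boxes. No capitals fell in the promoters of MDM2 start 1, GDF15, BBC3 or BTG2, and GDF15 was the 1 promoter of these 7 genes with TATAAA, which 10.7% of promoters hold. The number of CG dinucleotides in the 250 bases was 33 at MDM2 start 1, 30 at BTG2, 27 at CDKN1A and 23 at FDXR start 1, against 9 at GDF15, 4 at BBC3 and a median of 11 over all promoters. These matches describe the letters in these windows and are not binding sites measured here.

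CTCF peaks lay at all 8 promoters in both treatments, with 25 peaks in BPK-25 and 20 in DMSO. Over all windows of 10001 bp on chromosomes 1 to 22 and X, 36.0% held a CTCF peak in BPK-25 and 24.9% in DMSO. MBD3 peaks also lay at all 8 promoters, with 26 peaks in BPK-25 and 19 in DMSO, against 34.9% and 17.6% of windows. TET3 peaks lay at 4 promoters in BPK-25 (CDKN1A, MDM2, FDXR and BTG2) and at 6 in DMSO (the same 4 with FAS and RRM2B), against 3.91% and 3.97% of windows. GDF15 and BBC3 had no TET peak in either treatment. TET1 had no peak at these promoters in BPK-25 and 1 in DMSO, at MDM2, against 0.108% and 1.82% of windows. TET2 had none in either treatment, where 0.101% of windows in BPK-25 and 0.364% in DMSO held a peak. The windows are not matched to promoters, and how many other promoters held a peak was not analysed here.

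**Figure D1:**
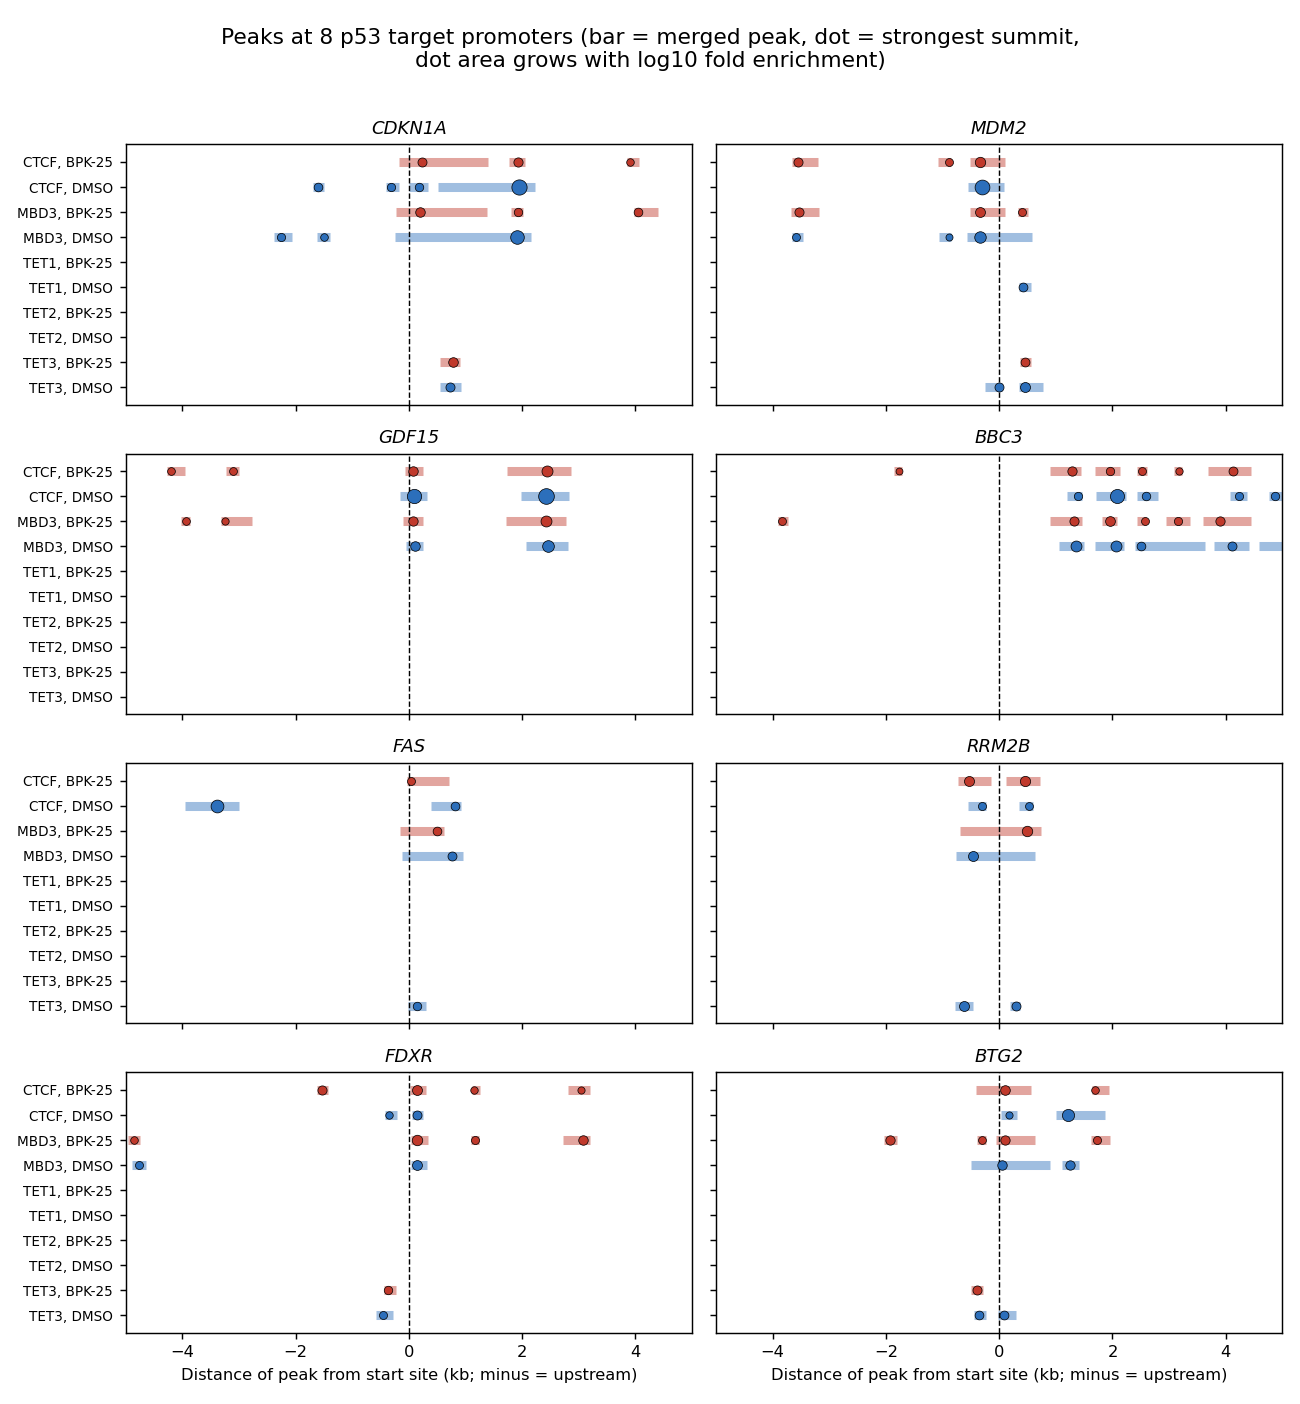
Positions of all merged peaks at the 8 promoters, as distance from the start site in kb with minus values upstream on the gene's strand. Each row is 1 list, with BPK-25 in red above DMSO in blue, each bar is a peak, and each dot is its strongest summit with an area that grows with log10 fold enrichment. All 8 genes have CTCF and MBD3 bars in both treatments, and the largest dots belong to CTCF in DMSO.

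The peaks differed more in strength than in number. The authors' fold enrichment, the pileup of fragments at a summit over its local background, reached 14.2 for CTCF in BPK-25 and 322 in DMSO at these promoters, and 13.6 and 70.0 for MBD3. For TET3 it reached 6.80 in BPK-25 and 8.16 in DMSO. A CTCF fold enrichment of 10 or more was found for 2 peaks at 2 promoters in BPK-25 and for 7 peaks at 6 promoters in DMSO. The median CTCF value here was 5.09 in BPK-25 and 4.30 in DMSO, against 3.71 and 11.3 over the whole lists. Most CTCF peaks of the DMSO list thus passed 10. For MBD3 it was found for 3 peaks at 3 promoters in BPK-25 and 6 peaks at 4 promoters in DMSO. The median MBD3 value here was 5.00 in BPK-25 and 6.40 in DMSO, against 3.77 and 3.65 over the whole lists. To set treatments side by side, the pileup was recovered as a whole number of fragments and divided by the genome background of its list, the lowest local background, which follows depth. That background was 2.58 fragments in BPK-25 and 3.68 in DMSO for CTCF, 2.57 and 3.21 for MBD3, and 1.65 and 1.70 for TET3. Ratios of these scaled pileups below are BPK-25 over DMSO, with exact 95% intervals that cover counting error only, and a site is called lower or higher at a ratio of at most 1/2 or at least 2. Positions of summits are in bp from the start site, minus being upstream.

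CDKN1A encodes p21, an inhibitor of cyclin-dependent kinases that halts the cell cycle. Its strongest CTCF summit lay at +1935 in BPK-25 and at +1937 in DMSO. The pileup there was 45 fragments in BPK-25 and 1665 in DMSO, or 17.5 and 452 times the genome background, with fold enrichments of 5.65 and 230. The ratio was 0.0386 (0.0281 to 0.0519), a lower site. Near the start itself CTCF was weak in both treatments, with 36 fragments at +229 in BPK-25 and 37 at +181 in DMSO, and the ratio of 1.39 (0.854 to 2.26) included equality. So within 1 promoter the distal summit was lower in BPK-25 while the summit at the start was not. Over all CTCF sites shared by both treatments, the median ratio was 0.0823 at a DMSO fold enrichment of at least 10. Under 10 it was 1.22. The 2 summits lie on either side of this limit, so nothing particular to CDKN1A is read from the contrast.

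MBD3 covered a longer stretch of CDKN1A, chr6:36646213-36648610 on hg19, from -246 to +2151 bp. In BPK-25 it held 2 separate peaks, and in DMSO 1 continuous peak with 6 summits, which ranked 5th of 82358 by -log10 q in the authors' deposited list. The summit at +1922 in BPK-25 had 33 fragments, 12.9 times the genome background, at a fold enrichment of 3.99. Its counterpart at +1904 in DMSO, the strongest of that peak, had 504 fragments, 157 times the genome background, at a fold enrichment of 70.0. The ratio of the pair was 0.0819 (0.0558 to 0.117). The other 4 pairs of MBD3 summits within 200 bp of each other were also lower in BPK-25, with 42 fragments at +199 in BPK-25 and 162 at +218 in DMSO as the strongest of them, a ratio of 0.324 (0.225 to 0.458). The ratios of these 4 ran from 0.177 to 0.381. At all 8 promoters together 10 of 25 such MBD3 pairs were lower and 1 was higher, where 9.09% of all MBD3 pairs were lower and 19.8% higher, and for CTCF 6 of 16 pairs were lower and 1 higher, where 39.2% and 13.1% of all CTCF pairs were. The shares over all pairs are not matched for strength in DMSO, the denominator of the ratio. All 5 MBD3 pairs of the stretch were lower, and the BPK-25 summits at +474, with 31 fragments, and at +1005, with 22, had no DMSO summit within 200 bp. The TET3 peak of CDKN1A lay inside the stretch, with 17 fragments at +779 in BPK-25 and 30 at +729 in DMSO. The TET3 ratio was 0.584 (0.302 to 1.09), and the local background there was 1.65 fragments in BPK-25 and 4.85 in DMSO.

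BTG2, an antiproliferative gene of the BTG/TOB family, had its strongest CTCF signal downstream of the start in DMSO and at the start in BPK-25. The downstream site held 24 fragments at +1696 in BPK-25 and 218 at +1219 in DMSO, or 9.31 and 59.2 times the genome background, a ratio of 0.157 (0.0986 to 0.240). These strongest summits lie apart, and the BPK-25 summit set against the nearest one of DMSO, with 69 fragments at +1643, gave a ratio of 0.497 (0.299 to 0.801). At the start, CTCF had 34 fragments at +95 in BPK-25 and 25 at +167 in DMSO, a ratio of 1.94 (1.13 to 3.40) that stayed short of the limit of 2. MBD3 at the start had 32 fragments in BPK-25 and 56 in DMSO, a ratio of 0.715 (0.448 to 1.12). A weaker MBD3 pair upstream, with 12 fragments at -307 in BPK-25 and 33 at -319 in DMSO, had a ratio of 0.455 (0.214 to 0.904). TET3 had 13 fragments at -388 in BPK-25 and 12 at -354 in DMSO, a ratio of 1.12 (0.470 to 2.68), and a further peak of 12 fragments at +77 in DMSO alone.

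MDM2 encodes the ubiquitin ligase that limits p53. Its CTCF peak upstream of the start had 51 fragments at -340 in BPK-25 and 903 at -312 in DMSO, or 19.8 and 245 times the genome background. The ratio was 0.0807 (0.0596 to 0.107). MBD3 had a summit at the same place, with 38 fragments at -347 in BPK-25 and 91 at -332 in DMSO, a ratio of 0.523 (0.348 to 0.771). The difference was smaller than for CTCF and short of the limit. A second MBD3 summit lay downstream of the start, toward the p53-responsive promoter, with 11 fragments at +402 in BPK-25 and 49 at +400 in DMSO, a ratio of 0.281 (0.132 to 0.548). TET proteins were found at the same spot. TET3 had 12 fragments at +454 in BPK-25 and 21 at +452 in DMSO, a ratio of 0.589 (0.264 to 1.25), and the 1 TET1 peak of all these promoters lay at +424 in DMSO with 14 fragments and a fold enrichment of 4.80. MDM2 was the 1 gene of the 8 where TET1, TET3 and MBD3 peaks met in DMSO. In BPK-25, CTCF also had a peak at -3550 with 21 fragments, a fold enrichment of 5.42 and no counterpart in DMSO. At this place MBD3 had a peak in both treatments, with 21 fragments at -3532 in BPK-25 and 17 at -3586 in DMSO.

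BBC3 encodes PUMA, a BH3-only protein that triggers apoptosis. Of all 8 genes it had the most CTCF and MBD3 peaks, 6 of each in BPK-25 and 5 of each in DMSO, most of them downstream of the start. The CTCF site strongest in DMSO held 21 fragments at +1958 in BPK-25 and 596 at +2082 in DMSO, or 8.15 and 162 times the genome background. The ratio was 0.0503 (0.0309 to 0.0777). At 2 other sites CTCF in BPK-25 had 32 fragments at +1289 and 30 at +4120, against 28 at +1383 and 22 at +4232 in DMSO. The ratios of these 2 sites were 1.63 (0.952 to 2.81) and 1.95 (1.09 to 3.54), and neither was called. That of the remaining shared CTCF site was 0.743. The site where MBD3 was strongest in DMSO lay elsewhere, with 30 fragments at +1322 in BPK-25 and 87 at +1352 in DMSO, a ratio of 0.432 (0.275 to 0.660). Beside the CTCF summit that was strong in DMSO, MBD3 had 39 fragments at +1955 in BPK-25 and 73 at +2059 in DMSO, a ratio of 0.669 (0.441 to 0.999). A broad MBD3 peak reached the window from 4591 bp downstream, and its strongest summits lay outside the window, with 19 fragments at +6058 in BPK-25 and 75 at +5191 in DMSO, a ratio of 0.317 (0.181 to 0.530). In BPK-25 the peak of this site began 5237 bp from the start, so the site reached the window only through its DMSO peak.

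FAS encodes the death receptor that binds FAS ligand. Of the CTCF peaks here with a fold enrichment of at least 10 in DMSO, 1 had no counterpart in BPK-25, and it lay at -3392 of FAS, with 193 fragments in DMSO, 52.4 times the genome background, and a fold enrichment of 41.4. At the start, the strongest CTCF summits of FAS were 19 fragments at +42 in BPK-25 and 44 at +811 in DMSO, a ratio of 0.617 (0.340 to 1.08). These CTCF summits lie apart. A CTCF pair within 200 bp, 14 fragments at +455 in BPK-25 and 25 at +491 in DMSO, gave 0.800 (0.384 to 1.60). MBD3 had 28 fragments at +493 in BPK-25 and 50 at +762 in DMSO, a ratio of 0.701 (0.425 to 1.13). A weak TET3 peak at +143, of 13 fragments, was listed in DMSO alone. By their strongest summits neither CTCF nor MBD3 was called at this start. Within 200 bp of each other, MBD3 had 28 fragments at +493 in BPK-25 and 43 at +510 in DMSO, a ratio of 0.815 (0.487 to 1.34). A weaker pair of MBD3 summits, with 13 fragments at +279 in BPK-25 and 35 at +141 in DMSO, had a ratio of 0.465 (0.226 to 0.900).

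GDF15, a secreted stress-induced cytokine of the TGF-beta superfamily, had the strongest CTCF peak of the 8 promoters in both treatments. At +2447 in BPK-25 there were 64 fragments, 24.8 times the genome background, and at +2425 in DMSO there were 2826, or 768 times. The ratio was 0.0324 (0.0248 to 0.0414), and by the authors' fold enrichment, 14.2 in BPK-25 and 322 in DMSO, it was 0.0442. The peak still ranked 861st of 245419 in BPK-25, within the top 0.351% of the list, and 113th of 99587 in DMSO, within the top 0.113%. A second CTCF peak sat on the start, with 35 fragments at +80 in BPK-25 and 1245 at +99 in DMSO, a ratio of 0.0402 (0.0278 to 0.0562). MBD3 lay at the same 2 places but differed less. It had 67 fragments at +2428 in BPK-25 and 158 at +2450 in DMSO, a ratio of 0.531 (0.393 to 0.710), and 32 fragments at +73 in BPK-25 and 62 at +101 in DMSO, a ratio of 0.646 (0.408 to 1.00).

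RRM2B, the p53-inducible small subunit of ribonucleotide reductase, was the 1 gene with CTCF sites called higher in BPK-25 by depth-scaled pileup. Downstream of its start, CTCF had 43 fragments at +464 in BPK-25 and 17 at +524 in DMSO, or 16.7 and 4.62 times the genome background. The ratio was 3.61 (2.02 to 6.76). Upstream, the strongest summits were 46 fragments at -538 in BPK-25 and 25 at -312 in DMSO, a ratio of 2.63 (1.58 to 4.46). These upstream summits are different positions: a weaker BPK-25 summit at -238, closer to the DMSO one, had 11 fragments and gave a ratio of 0.629 (0.279 to 1.32). In BPK-25, MBD3 lay at nearly the same positions as CTCF, with 42 fragments at +482 and 40 at -517. In DMSO, MBD3 had 22 fragments at +444 and 59 at -463, which gave ratios of 2.39 (1.39 to 4.20) and 0.848 (0.553 to 1.29). At a pair nearer the start, MBD3 had 13 fragments at +159 in BPK-25 and 44 at +180 in DMSO, a ratio of 0.370 (0.183 to 0.699). TET3 had peaks at +289, with 13 fragments, and at -617, with 22 fragments, in DMSO alone.

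FDXR encodes ferredoxin reductase, a mitochondrial enzyme that passes electrons from NADPH to ferredoxin. None of its shared sites was called. CTCF had 38 fragments at +138 in BPK-25 and 37 at +146 in DMSO, or 14.7 and 10.0 times the genome background, a ratio of 1.47 (0.908 to 2.37). MBD3 had 51 fragments at +150 in BPK-25 and 50 at +150 in DMSO, a ratio of 1.28 (0.847 to 1.92). TET3 lay upstream, with 12 fragments at -362 in BPK-25 and 23 at -459 in DMSO, a ratio of 0.538 (0.244 to 1.13), where the local background was 2.23 fragments in BPK-25 and 6.06 in DMSO. Other peaks of FDXR were listed in 1 treatment alone. CTCF had 28 fragments at -1525, 21 at +1152 and 19 at +3035 in BPK-25 alone, and 42 at -344 in DMSO alone. MBD3 had 38 fragments at +3080 and 25 at +1162 in BPK-25 alone.

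**Figure D2:**
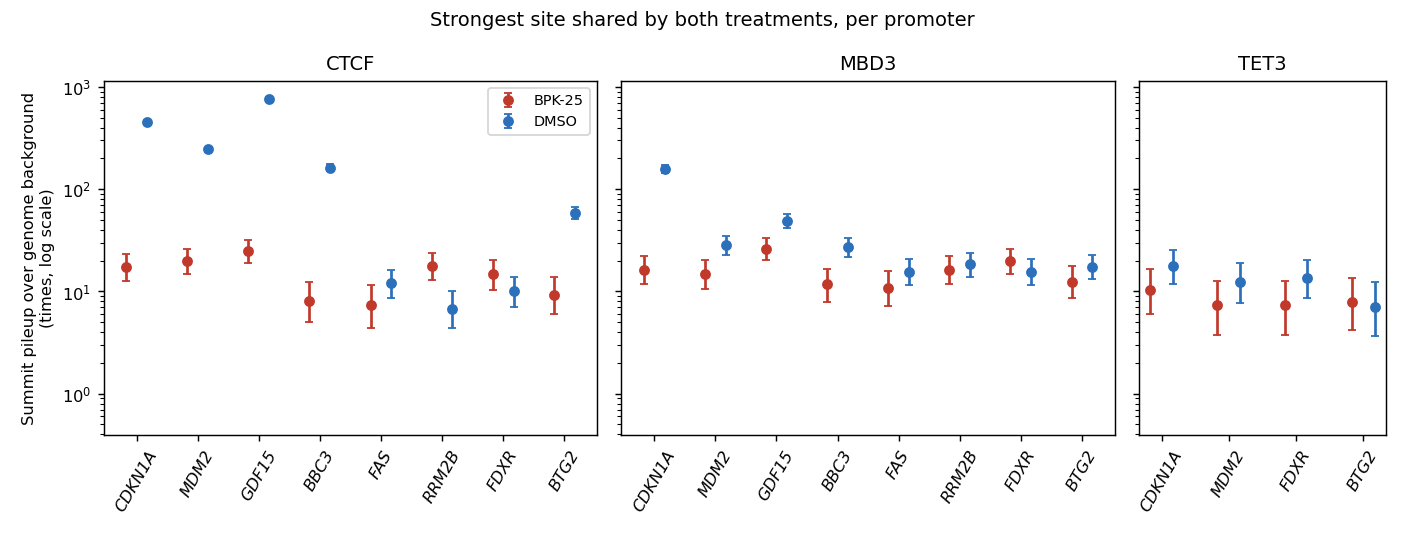
Shared site that was strongest in DMSO at each promoter, for CTCF, MBD3 and TET3. The vertical axis, on a log scale, is the summit pileup as a multiple of the genome background, with BPK-25 in red left of DMSO in blue and bars for exact 95% counting intervals. For CTCF, GDF15 has 24.8 in BPK-25 and 768 in DMSO, while RRM2B has 17.8 and 6.79.

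Seen over all 8 genes, CTCF peaks of DMSO overlapped a BPK-25 peak in 16 of 20 cases, or 80.0%, and MBD3 peaks in 15 of 19, or 78.9%. Over the whole lists these shares were 39.2% for CTCF and 61.4% for MBD3. For TET3, 4 of 9 DMSO peaks were retained, or 44.4%, against 31.9% of that list. The 1 TET1 peak was not retained, and 4.59% of that list was. Of the BPK-25 peaks at these promoters, 10 of 25 for CTCF and 8 of 26 for MBD3 overlapped no DMSO peak, or 40.0% and 30.8%. Over the lists such new peaks made up 83.3% for CTCF and 78.2% for MBD3. For TET3, 0 of 4 were new, against 65.8% of the list. All 8 promoters kept at least 1 CTCF peak and 1 MBD3 peak, where kept means overlap whatever the strength. At FAS the kept CTCF peak had a fold enrichment of 4.51 in DMSO, and the one with 41.4 was not kept. The shares over the whole lists are not matched to promoters.

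The CTCF sites at these promoters were 14 shared sites, 10 with a peak in BPK-25 alone and 4 with a peak in DMSO alone. Of the shared ones 6 were lower, 2 were higher and 6 were neither, where 49.7% of all shared CTCF sites were lower and 11.0% higher. The 6 lay at CDKN1A, MDM2, BBC3 and BTG2 with 1 each and at GDF15 with 2, and the 2 higher ones at RRM2B. Each of the 6 had a DMSO fold enrichment of at least 10. The DMSO pileup is the denominator of the ratio, so that a choice of sites on it favours low ratios, and 93.5% of all CTCF sites chosen in this way were lower. Nothing is therefore read from it. After division by the median pileup of each list, the same 6 sites were lower and 7 of the 14 were higher, at BBC3, RRM2B, FDXR and BTG2, where 33.4% of all shared CTCF sites were lower and 42.0% higher. By the authors' fold enrichment 6 were lower and 3 higher, the added one at the start of BTG2, where 50.4% of all shared CTCF sites were lower and 7.53% higher. The number of higher CTCF sites thus depended on the scale.

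MBD3 also had 14 shared sites, 8 with a peak in BPK-25 alone and 4 in DMSO alone. Of the shared ones 3 were lower, 1 at CDKN1A and 2 at BBC3, and none was higher, where 8.02% of all shared MBD3 sites were lower and 23.5% higher. Without the BBC3 site that reached the window only through its DMSO peak, 2 of 13 were lower. Each of the 3 had a DMSO fold enrichment of at least 10, as had 6 of the 14 shared sites. All shared MBD3 sites of that strength had a median ratio of 0.533. Of these, 48.5% were lower by the authors' fold enrichment and 51.5% after division by the median pileup. As for CTCF, a choice on the DMSO pileup favours low ratios, so nothing is read from the 3. After division by the median pileup 5 of the 14 were lower, the added ones at MDM2 and GDF15, and none was higher, where 10.4% of all shared MBD3 sites were lower and 19.9% higher. The strongest MBD3 summits of the CDKN1A stretch, set against each other, gave a ratio of 0.104 (0.0742 to 0.143). TET3 had 4 shared sites, none called, with a median ratio of 0.587 and a range of 0.538 to 1.12. Of all shared TET3 sites 7.90% were lower and 1.79% higher, with a median of 0.859, and each of the 4 intervals included 1.

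**Figure D3:**
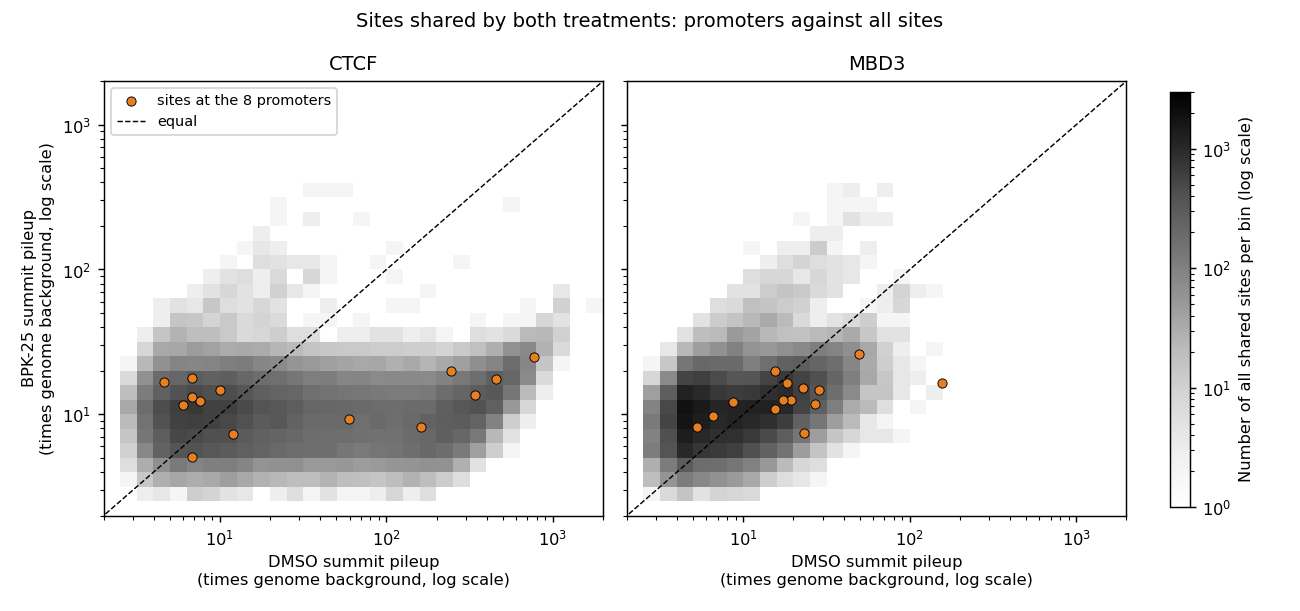
Sites shared by both treatments, with the BPK-25 summit pileup on the vertical axis and the DMSO summit pileup on the horizontal axis, both as multiples of the genome background on log scales. Orange points are the 14 promoter sites for CTCF and the 14 for MBD3, grey bins count all shared sites, and the dashed line marks equal values. One of the MBD3 points is the BBC3 site whose BPK-25 peak lies outside the window. For CTCF the GDF15 point stands at 24.8 in BPK-25 and 768 in DMSO, and the CDKN1A point of MBD3 stands at 16.4 in BPK-25 and 157 in DMSO.

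CTCF and MBD3 were then compared within each treatment. Of the CTCF peaks at these promoters, 22 of 25 overlapped an MBD3 peak in BPK-25 and 18 of 20 did in DMSO, where 69.0% and 36.9% of the whole CTCF lists did. Of the MBD3 peaks, 22 of 26 overlapped a CTCF peak in BPK-25 and 15 of 19 in DMSO, where 69.1% and 43.3% of the MBD3 lists did. CTCF and MBD3 pileups were near each other in BPK-25. Over 32 pairs of CTCF and MBD3 summits within 200 bp, the ratio of scaled CTCF to MBD3 pileup in BPK-25 had a median of 0.996 and ran from 0.498 to 1.46. Over all 212255 such pairs the median was also 0.996, with quartiles of 0.824 and 1.17. In DMSO the 20 pairs had a median of 0.721 and ran from 0.199 to 17.5, and 6 were at least 2 and 6 at most 1/2. Over all 43538 pairs in DMSO the median was 1.55, with quartiles of 0.717 and 12.7.

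CTCF exceeded MBD3 in DMSO at the start of GDF15, by 17.5 (13.6 to 23.0), and at its downstream site, by 15.6 (13.3 to 18.4). It also did at MDM2, by 8.66 (6.97 to 10.9), at the BBC3 summit strong in DMSO, by 7.12 (5.58 to 9.21), at BTG2, by 4.64 (3.31 to 6.65), and at the distal CDKN1A summit, by 2.88 (2.61 to 3.19). MBD3 exceeded CTCF most at the start of CDKN1A, where the ratio in DMSO was 0.199 (0.135 to 0.286). The other DMSO pairs at most 1/2 were 2 at BBC3, with 0.281 (0.177 to 0.434) and 0.499 (0.289 to 0.843), and 1 at RRM2B, with 0.370 (0.222 to 0.600). CDKN1A at +1346 had 0.379 (0.255 to 0.556) and the start of BTG2 0.390 (0.233 to 0.635). At the start of CDKN1A in BPK-25 the ratio was 0.854 (0.531 to 1.37), and at the downstream site of GDF15 in BPK-25 it was 0.951 (0.665 to 1.36). In BPK-25 it was 1.09 (0.655 to 1.82) at the start of GDF15, 1.34 (0.861 to 2.09) at MDM2 and 0.536 (0.300 to 0.934) at the same BBC3 summit. At the distal CDKN1A summit it was 1.36 (0.848 to 2.20) in BPK-25. The BBC3 pair with 0.281 in DMSO had 1.06 (0.625 to 1.81) in BPK-25, and the start of BTG2 had 1.06 (0.634 to 1.77). At these 2 GDF15 sites, MDM2, the BBC3 summit strong in DMSO and distal CDKN1A the ratio was lower in BPK-25 than in DMSO. It was higher at the starts of CDKN1A and BTG2 and at the BBC3 pair with 0.281. These sites were named for their high or low ratios in DMSO, and BPK-25 pairs over the whole list lay near 1. Such a choice of sites favours these directions, so nothing is read from them, and their cause was not tested.

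**Figure D4:**
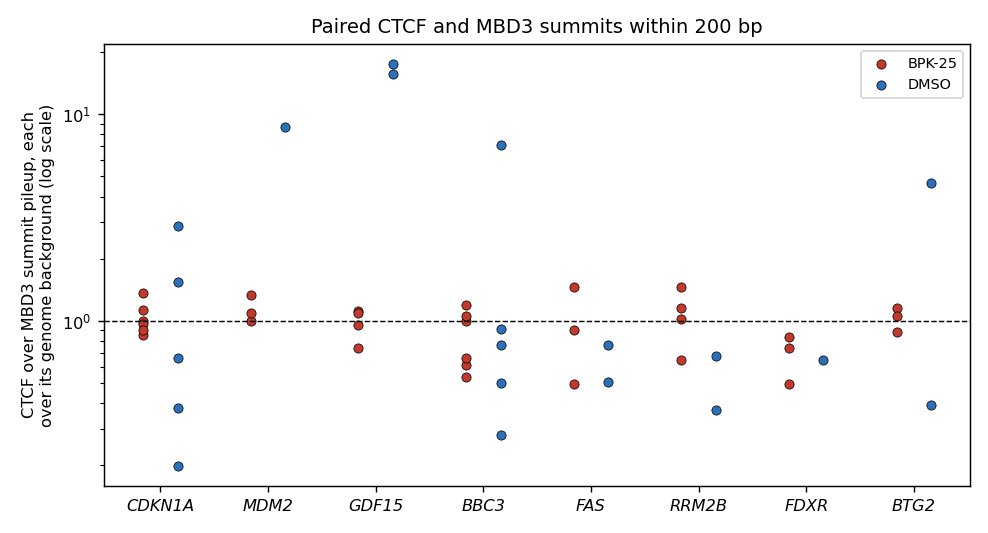
Ratio of scaled CTCF to scaled MBD3 pileup, on a log axis, for each pair of summits within 200 bp at the 8 promoters. BPK-25 is in red left of DMSO in blue, and the dashed line marks a ratio of 1. The 32 pairs of BPK-25 lie between 0.498 and 1.46, and the 20 of DMSO between 0.199 and 17.5.

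The local background, which the peak caller takes from the input or from the genome average, differed between treatments at some of these sites. At the CTCF start of GDF15 it was 4.59 fragments in BPK-25 and 9.63 in DMSO, or 1.78 and 2.62 times the genome background. At the start site of BTG2 it was 4.08 and 9.63, or 1.58 and 2.62 times. At the distal CTCF summit of CDKN1A it was 7.13 and 6.23, or 2.77 and 1.69 times. At MDM2 it was 4.08 and 4.49, or 1.58 and 1.22 times. Its part in the ratios was not tested. Just inside the 5 kb limit, the CTCF peak of BBC3 in DMSO began 4759 bp from the start at a fold enrichment of 3.99, and the MBD3 peaks of FDXR began 4750 bp away in BPK-25 and 4632 bp in DMSO, at 2.88 and 3.36. Just outside it, a CTCF peak began 5391 bp from CDKN1A in BPK-25 at 7.61, and CTCF peaks began 5103 bp from FDXR in BPK-25 and 5087 bp in DMSO, at 3.40 and 5.43.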

How the data were processed

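The files were 10 deposited narrowPeak lists on hg19, 1 per protein and treatment. Per the submitters' processing notes, hg19, MACS2 2.1.2, Bowtie2 2.3.4, bedtools 2.25.0, SAMtools 1.9 and FastQC 0.11.7 were used, with parameters not given in the sources used. Pooled calling against input was read from the names of the lists. The list of TET2 in DMSO is named for 3 replicates, of which 2 are labelled. Each deposited row holds a score, a fold enrichment (a ratio of pileup to local background), a p-value and a q-value as -log10, and the offset of the summit from the interval's start, all from the authors' peak caller.

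Overlapping or touching rows were merged, and each peak kept its summit of highest -log10 q. With fold enrichment read as (n + 1)/(background + 1) and -log10 p as that of a Poisson tail, both columns together gave the pileup n and the local background. Below a pileup of 200, the solved values of every list were whole within 0.02 in 100% of cases. The lowest pileup called was 8 to 11 fragments, below which a weak site goes unlisted. Total reads per library were not used here. Overlap meant at least 1 bp, and summits were paired within 200 bp. A site is a set of overlapping peaks of both treatments. Its ratio sets the strongest summit of each treatment against the other, with exact conditional binomial intervals that take the genome backgrounds as known. No p-value was computed, since 1 pooled list per group allows no test.

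Members, lists and settings were chosen with earlier results of these data known. All 8 genes were described in every list. The alternatives tried were limits of 5 and 10 on -log10 q, rows within 500 bp merged, 50% of a peak covered, windows of 2 or 1 kb, the authors' fold enrichment, division by the list's median pileup, and summits within 200 bp. The background by DMSO fold enrichment, the 20-letter p53 site, AGGGGGC, sites counted on other scales, sites with both peaks in the window and the site strongest in BPK-25 were added after the data were seen. No hg19 annotation was used here, so exons, introns and other p53 pathway genes were not analysed. The strand of RRM2B came from general knowledge. The recovery of pileups was tested on simulated data. Python 3.11.15, numpy 2.4.6, pandas 2.3.3, scipy 1.17.1 and matplotlib 3.10.9 were used.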

Additional observations from a re-analysis of the deposited data

How the results depend on the processing

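No paired analysis was possible because each group has 1 pooled list, and for the same reason no replicate could be left out. At a -log10 q of at least 5 or 10, promoters with a TET3 peak numbered 2 and 0 in BPK-25 (4 without that limit) and 3 and 3 in DMSO (6), and promoters with a TET1 peak in DMSO numbered 0 and 0 (1). Promoters with a retained TET3 peak numbered 1 and 0 (4), and with a retained CTCF peak 4 at a -log10 q of at least 10 (8). Each promoter's shared site was taken as the one strongest in DMSO, which favours low ratios. With the one strongest in BPK-25, promoters called lower numbered 3 for CTCF (5) and 1 for MBD3 (2). By the site strongest in DMSO, promoters called higher for CTCF numbered 1. They numbered 2 after division by the list's median pileup and 0 with summits within 200 bp, where the RRM2B ratio was 0.629 in place of 2.63. MBD3 had 2 promoters called lower by that site, and 4 after division by the median pileup. That division moved 8 single ratios, all of CTCF, and raised each, because it takes the strength of the list itself as its scale: GDF15 stood at 0.0906, and FAS at 1.73 in place of 0.617. It moved the median log2 ratio of all shared CTCF sites to 0.51, where depth scaling gave -0.98, so the direction of the CTCF ratios near 1 depends on this choice. It gave 7 higher CTCF sites of 14 (2 by depth) and 5 lower MBD3 sites of 14 (3 by depth). By their strongest summits, the 6 lower CTCF sites were lower on this scale too, at 0.0906 to 0.440. The 0.440 was that of BTG2, whose strongest summits lie at +1696 in BPK-25 and +1219 in DMSO. Its nearest pair of summits, with 0.497 by depth, was not put on this scale, so its direction there is not known. The median log2 ratio of all shared TET3 sites was 0.15 by the authors' fold enrichment and -0.22 by depth scaling. The other counts of promoters stayed within 1.5 times their value. By the authors' fold enrichment, the TET3 ratios of CDKN1A and FDXR were 1.28 and 1.18 and the MBD3 ratio of RRM2B 1.26, each above 1 in place of below it. The cause was not tested. Depth limits the weak sites most: a TET peak of 12 to 30 fragments has wide counting intervals, and a site under the lowest pileup called counts as no peak.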
